A study of Arabidopsis thaliana with 21 samples.

Results

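The comparison set hypocotyls of the max3 mutant of Arabidopsis thaliana against those of intact wild-type plants. Its members were the 3 arrays titled max3 and the 3 titled as intact wild type, 6 of the 21 arrays of the study. The study profiled 7 groups of 3 arrays each on one Affymetrix array design. The intact plants were Col-0, and the mutant arrays carry the genotype label max3 with no allele or background named. Both groups were 2 weeks old and both had received lanolin with less than 10% ethanol, so no group of the study was free of it. The other wild-type groups were decapitated, decapitated and given IAA (the auxin indole-3-acetic acid), or given NPA, an inhibitor of auxin transport. The remaining groups were the mutants max1 and max2. Hypocotyls were taken 24 h after treatment, and 1 replicate pooled 120 to 150 of them. An array value therefore averages over plants and over all cell types of the hypocotyl.

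MAX3 encodes CCD7, a carotenoid cleavage dioxygenase of the plastid that acts early in strigolactone synthesis. Strigolactones are carotenoid-derived hormones that restrain the outgrowth of shoot branches, and plants that lack them are bushy. MAX1, a cytochrome P450, acts later in the same route on the mobile intermediate carlactone. MAX2 is the F-box protein through which strigolactones, and also karrikins, trigger the breakdown of repressor proteins. Strigolactones and auxin are linked in the stem: auxin moving down the stem raises strigolactone synthesis, and strigolactones reduce the amount of PIN auxin carriers at the plasma membrane. The transcript of MAX3 itself was not analysed here, so the genotype could not be checked by the targeted gene.

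Values are log2 intensities, so a difference of 1 is a doubling in the label's brightness. A value below 3.5 is taken as near background; 29.9% of the probe sets stayed below it on every array. Where a group lies below 3.5, the size of a difference depends on the arrays' floor and may understate the change. The 6 arrays were alike: correlations over all probe sets ran from 0.99 to 0.994 within the intact plants and from 0.991 to 0.995 within max3. Between the groups they ran from 0.981 to 0.989. No 2 arrays held identical values, and the medians of these 6 arrays ran from 6.24 to 6.35.

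Of 22746 probe sets tested, 459 (2.02%) differed between max3 and the intact plants in limma's moderated test at a Benjamini-Hochberg adjusted p below 0.05. The direction was balanced, with 227 higher (0.998%) and 232 lower (1.02%). The raised probe sets moved further, by a median of 1.23 on the log2 scale, against -0.81 for the lowered. The median over all probe sets was -0.03. A change of at least 1 was reached by 233 probe sets (1.02%), 147 higher (0.646%) and 86 lower (0.378%). With the replicate number as a block, 971 probe sets (4.27%) differed, 487 higher (2.14%) and 484 lower (2.13%), and all 459 were among them. With each array's median subtracted the split was 210 higher and 326 lower.

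The 3 max3 values and the 3 intact values did not overlap in 4824 probe sets (21.2%), with max3 higher in 1606 (7.06%) and lower in 3218 (14.1%). This count is not a test: with 3 arrays a group, some probe sets do not overlap by chance. It also takes in small shifts near background, such as AT5G24240, with means of 2.07 in the intact plants and 2.04 in max3. Leaving out any 1 of the 6 arrays left between 217 and 306 probe sets past the threshold. The loss was over 1.5 times for each array except max3 replicate 3. Its removal left 306, close to the 304 left without intact replicate 3. By gene, 228 of 13355 named genes (1.71%) differed, 106 higher (0.794%) and 122 lower (0.914%). Of the probe sets past the threshold with all arrays, 230 name 1 gene, 2 name several and 227 have no gene named here. The rankings of genes, the gene lists and the chromosome windows below cover named genes only, so they leave out those 227.

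**Figure D1:**
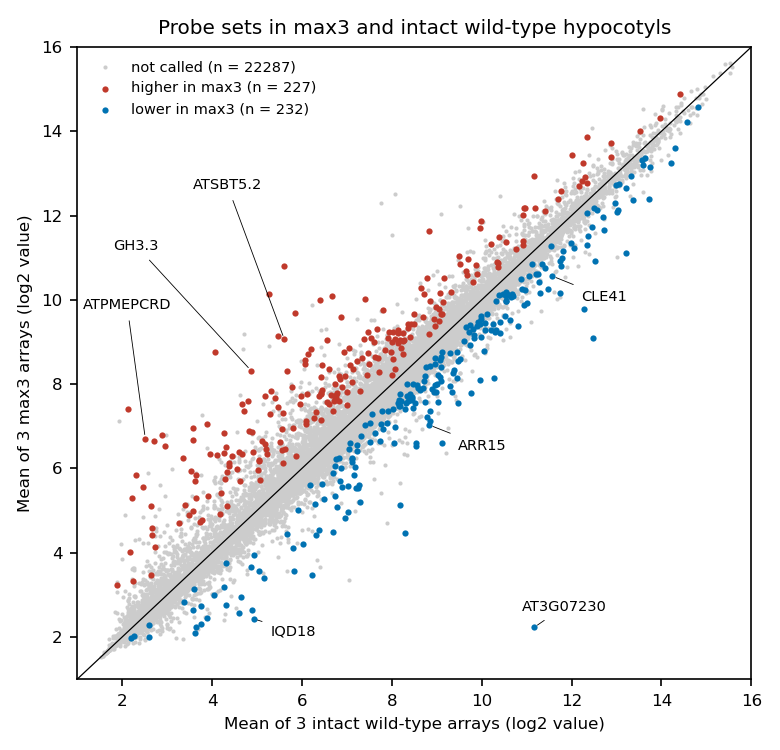
Each point is 1 of 22746 probe sets, with the mean log2 value of the 3 intact wild-type arrays on the x axis and of the 3 max3 arrays on the y axis. The 227 red and 232 blue points are the probe sets higher and lower in max3 at an adjusted p below 0.05. AT3G07230 lies far below the diagonal and alone in that part of the plot.

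Among raised genes with a symbol, the largest changes were those of ATPMEPCRD, scpl30, ATSBT5.2, GH3.3, SBT4.12 and WAG2. ATPMEPCRD (AT2G43050), of the pectin methylesterase family whose enzymes alter wall pectin, read 2.45, 2.54 and 2.56 in the intact plants. In max3 it read 7.22, 6.12 and 6.77. Every intact value was near background and every max3 value far above it, a difference of 4.19 ± 0.41 (SE, adjusted p = 0.000137). scpl30 (AT4G15100), a serine carboxypeptidase-like gene, showed the same contrast, with 2.29, 2.30 and 2.32 against 5.24, 6.21 and 6.10. It rose by 3.55 ± 0.46 (adjusted p = 0.000982). For both genes the size of the rise rests on intact values near background.

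A pair of subtilases, serine proteases that mostly act in the cell wall, rose as well. ATSBT5.2 (AT1G20160) read 5.34, 4.49 and 7.0 in the intact plants and 8.92, 9.42 and 8.84 in max3, a rise of 3.45 ± 0.48 (adjusted p = 0.00157). The intact values were scattered, and their highest still lay below the lowest max3 value. SBT4.12 (AT5G59090) read 3.34, 4.04 and 4.28 against 6.84, 6.78 and 7.57, a rise of 3.18 ± 0.38 (adjusted p = 0.000624). Of the 10 measured subtilases these 2 rose and none fell, against 0.794% higher and 0.914% lower over all named genes. The median of the family was 0.00, against -0.03 over all named genes, and 2 of the 10 lay below 3.5 on every array.

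The auxin-linked genes among the most raised were GH3.3 and WAG2. GH3.3 (AT2G23170), an enzyme that joins auxin to amino acids, read 4.02, 4.77 and 5.81 in the intact plants and 7.01, 8.11 and 9.83 in max3. The arrays of the same number ranked alike in both groups, and the groups did not overlap. The rise of 3.45 ± 0.85 had an adjusted p of 0.0497, and of 0.00367 with the replicate block. It was lost after a second quantile normalization and in 5 of the 6 fits that left out an array, with an adjusted p of up to 0.171. WAG2 (AT3G14370), a kinase that acts on PIN auxin carriers, read 3.28, 3.28 and 3.53 against 5.93, 6.43 and 6.40, a rise of 2.89 ± 0.38 (adjusted p = 0.000982). Its 3 max3 values lay close together and well clear of the intact ones.

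Those auxin-linked genes and ATPMEPCRD were also high in the decapitated plants given IAA. There the mean was 14.61 for GH3.3, 6.87 for WAG2 and 7.12 for ATPMEPCRD. In decapitated plants without IAA they averaged 4.23, 2.29 and 2.48.

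The other 6 of the 12 raised genes with a symbol and the largest changes moved by 1.23 to 1.54. FOLB1 (AT3G11750), an aldolase of folate synthesis, read 5.01, 5.40 and 4.91 against 6.50, 6.91 and 6.54, a rise of 1.54 ± 0.25 (adjusted p = 0.00481). COR47 (AT1G20440), a dehydrin that accumulates in cold and drought, read 11.00, 11.02 and 10.79 against 12.20, 11.80 and 12.51, a rise of 1.23 ± 0.22 (adjusted p = 0.00854). Both were separated from the intact plants by more than the spread of either group. MYR2 (AT3G04030), a MYB-related transcription factor, and TBL34 (AT2G38320), an acetyltransferase of xylan, sat at the threshold. MYR2 rose by 1.44 ± 0.35 (adjusted p = 0.0459) and TBL34 by 1.28 ± 0.31 (adjusted p = 0.0493). Each lost the call in 5 of the 6 fits that left out an array, with an adjusted p of up to 0.163 for MYR2 and 0.172 for TBL34, and after a second quantile normalization. The remaining members were the plastid genes ndhJ and ndhE, described below with the rest of their genome.

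**Figure D2:**
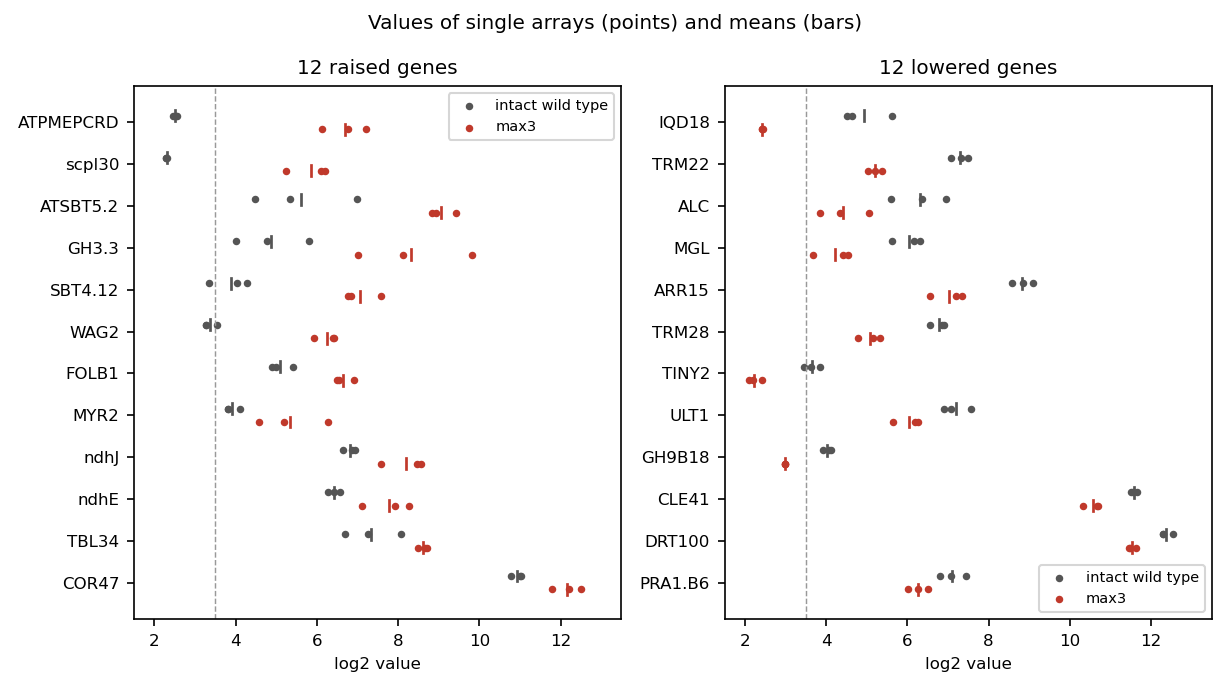
The log2 values (x axis) of the 12 raised and 12 lowered genes with a symbol and the largest changes are drawn for each intact (grey) and max3 (red) array, with a bar at the mean of 3. The dashed line marks 3.5, below which values are near background. The groups overlap in none of the 24, which was part of the rule that chose them.

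Among lowered genes with a symbol, IQD18 and TRM22 changed most, and ARR15 and CLE41 stood further down. IQD18 (AT1G01110), of a calmodulin-binding family that associates with microtubules, read 4.52, 4.63 and 5.62 in the intact plants. In max3 it read 2.42, 2.43 and 2.44, all near background, and it fell by 2.49 ± 0.32 (adjusted p = 0.000982). TRM22 (AT1G67040) and TRM28 (AT5G03670) belong to the TON1-recruiting proteins, which bring a regulator of cortical microtubules to its sites. TRM22 read 7.07, 7.49 and 7.32 against 5.38, 5.04 and 5.21, a fall of 2.09 ± 0.21 (adjusted p = 0.000204). TRM28 read 6.84, 6.91 and 6.56 against 5.34, 5.15 and 4.79, a fall of 1.68 ± 0.31 (adjusted p = 0.0113). In both genes the lowest intact value lay over 1 above the highest max3 value.

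ARR15 (AT1G74890), a type-A response regulator that cytokinin induces and that damps the cytokinin response, read 8.57, 8.84 and 9.08 in the intact plants and 7.21, 7.34 and 6.55 in max3. It fell by 1.80 ± 0.32 (adjusted p = 0.00853), and the groups lay well apart. CLE41 (AT3G24770) encodes the TDIF peptide, which is made in the phloem and keeps cambial cells dividing. It read 11.50, 11.55 and 11.65 against 10.70, 10.68 and 10.32, so that it stayed bright in both groups, and fell by 1.00 ± 0.18 (adjusted p = 0.0107). In a bulk sample, fewer cells of a type and less RNA per cell cannot be told apart, here as for every gene below and above.

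Transcriptional regulators were also among the lowered. TINY2 (AT5G11590), an AP2/ERF factor, read 3.46, 3.86 and 3.63 against 2.19, 2.1 and 2.42, a fall of 1.41 ± 0.10 (adjusted p = 1.64e-06). Of its intact values 3.46 lay just below the 3.5 line and the others only just above it. All max3 values were below it. ALC (AT5G67110), a bHLH factor known from fruit opening, fell by 1.88 ± 0.39 (adjusted p = 0.0203). ULT1 (AT4G28190), a SAND-domain regulator of meristem size, fell by 1.16 ± 0.28 (adjusted p = 0.0485). ULT1 lost the call in all 6 fits that left out an array, with an adjusted p of up to 0.162. ALC lost it in 4 of 6, with an adjusted p of up to 0.103.

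MGL (AT1G64660), methionine gamma-lyase, which breaks methionine down, read 6.17, 6.30 and 5.62 against 3.68, 4.42 and 4.54. It fell by 1.81 ± 0.32 (adjusted p = 0.00788). GH9B18 (AT4G39010), of the endoglucanase family of wall enzymes, read 3.92, 4.07 and 4.11 against 2.98, 2.98 and 3.00, a fall of 1.05 ± 0.17 (adjusted p = 0.00498). In max3 GH9B18 lay below 3.5, while all 3 values of MGL stayed above it. DRT100 (AT3G12610), a leucine-rich repeat protein, fell by 0.85 ± 0.15 (adjusted p = 0.00739). PRA1.B6 (AT5G07110), of a family of membrane-trafficking proteins, fell by 0.85 ± 0.20 (adjusted p = 0.0404). PRA1.B6 lost the call in 4 of the 6 fits that left out an array, with an adjusted p of up to 0.168.

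Of these 24 genes, limma's direct test called none between max3 and max1 and only ATPMEPCRD between max3 and max2. At an unadjusted p below 0.05 the counts were 5 and 12. A missed threshold there does not show that the mutants act alike. For SBT4.12 the estimate was -1.76 from max1 (adjusted p = 0.0742), and for GH3.3 it was 2.98 from max2 (adjusted p = 0.288). Fitted on the 6 arrays alone, 9 of the 24 passed.

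Among genes known only by a locus code, AT1G30760 rose by 3.91 ± 0.59 (adjusted p = 0.00316), from 3.2, 3.1 and 2.37 to 6.40, 7.19 and 6.80. AT5G63180 rose by 3.59 ± 0.44 (adjusted p = 0.000683), from 2.93, 2.96 and 2.98 to 6.47, 6.67 and 6.49. AT2G34930 rose by 3.09 ± 0.53 (adjusted p = 0.00765) and AT5G28630 by 2.86 ± 0.59 (adjusted p = 0.022). On the lowered side AT1G04660 read 8.76, 8.36 and 7.45 against 5.03, 5.02 and 5.33, a fall of 3.06 ± 0.55 (adjusted p = 0.00908). AT1G10980 fell by 2.27 ± 0.55 (adjusted p = 0.0474) and AT5G60250 by 2.13 ± 0.30 (adjusted p = 0.00171). AT1G10980 lost the call in all 6 fits that left out an array (adjusted p up to 0.199), and AT5G28630 in 3 of them (up to 0.106). AT3G07230, the fourth of the lowered, is described next.

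AT3G07230 read 11.12, 11.48 and 10.89 in the intact plants and 1.87, 2.35 and 2.45 in max3. All intact values were high and all max3 values at background, with none between. The fall was 8.94 ± 0.18 (adjusted p = 8.11e-14). The size rests on max3 values at background, as do the differences from the other mutants below. Every other group held it high, with means of 11.57 in max1, 11.59 in max2, 11.59 in decapitated plants, 11.69 with IAA and 11.37 with NPA. Max3 lay 9.34 below max1 (adjusted p = 4.19e-14) and 9.37 below max2 (adjusted p = 4.03e-14). Of the 20 genes next to it on chromosome 3, 10 on each side, 13 were measured. Their changes ran from -0.25 to 0.17, and limma called none of them, with 0 at an unadjusted p below 0.05. That window was chosen after the value of AT3G07230 was seen. Probe sets with no gene named could not be placed in it.

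It was 1 of 6 probe sets (0.0264%) in which max3 differed in the same direction from the intact plants, from max1 and from max2. The replicate block gave 14 (0.0615%). AT2G30710 was lower in max3, with 7.52, 7.63 and 7.71 against 8.45, 8.31 and 8.51 in the intact plants, a fall of 0.80 ± 0.11 (adjusted p = 0.00171). It lay 0.66 below max1 and 0.84 below max2, and decapitated and NPA-treated plants, with means of 7.88 and 7.87, were nearly as low. AT3G45730 was higher in max3, with 5.6, 5.64 and 5.96 against 4.96, 4.97 and 5.28, a rise of 0.67 ± 0.11 (adjusted p = 0.0061). Its means in the other 6 groups lay between 4.92 and 5.09.

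AT1G78170 rose from 1.88, 1.86 and 1.88 to 3.77, 2.68 and 3.25, by 1.36 ± 0.19 (adjusted p = 0.00148). Only 1 of its max3 values was above 3.5, and every other group averaged at most 2.04. The other 2 probe sets, 258822_s_at and 248208_at, have no gene named in the table used here. The number of 258822_s_at directly follows that of 258821_at, the probe set of AT3G07230. Whether it measures a gene beside AT3G07230 was not tested. The first fell by 1.5 ± 0.15 (adjusted p = 0.000137), from 8.61, 8.74 and 9.22 to 7.28, 7.41 and 7.38. The second rose by 3.09 ± 0.44 (adjusted p = 0.00208), from 2.28, 1.99 and 2.39 to 6.18, 4.69 and 5.05. In plants given IAA it averaged 3.70, and in the other groups at most 2.43.

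**Figure D3:**
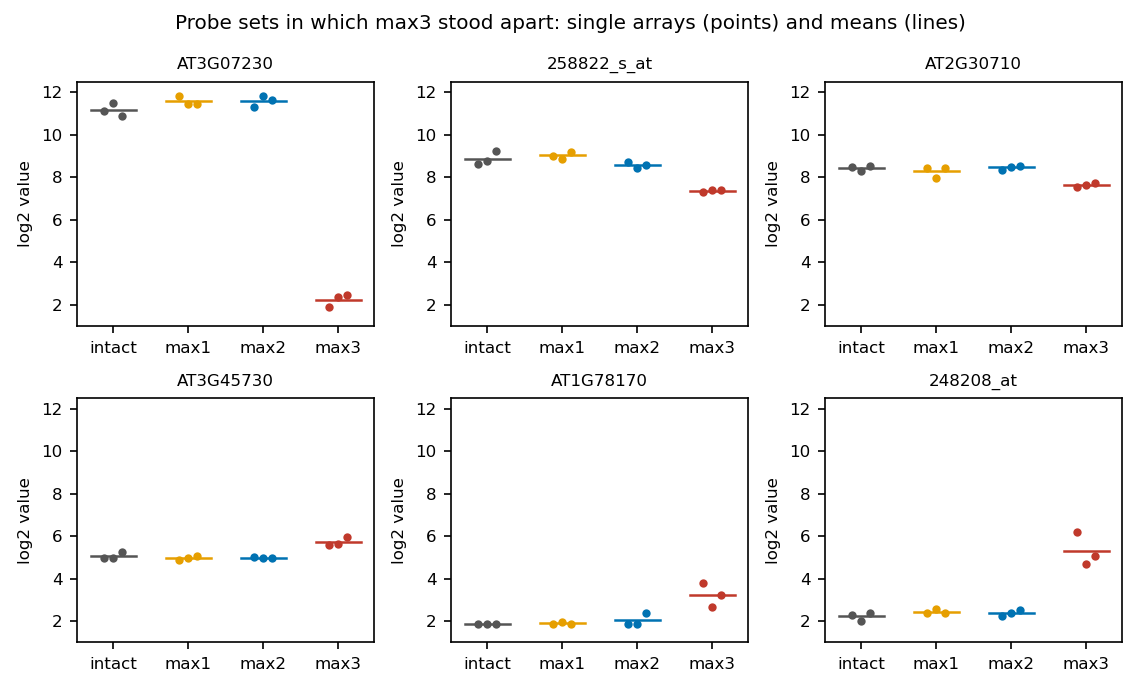
Each panel shows 1 of the 6 probe sets in which max3 differed from the intact plants, max1 and max2 alike, with the log2 value of each array as a point and the mean of 3 as a line. AT3G07230 falls from about the level of the other groups to 2.22, while the other 5 shift by 0.67 to 3.09.

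The genes around MAX3 (AT2G44990) on chromosome 2 were taken separately, since genes close to a locus tend to be inherited with it. How far this held in these plants was not tested. Of the 100 genes on either side, 88 were measured and 1 (1.14%) passed the test, against 1.71% of all named genes. That was AT2G45180, 19 genes away, which read 9.50, 8.60 and 8.25 in the intact plants and 10.48, 10.53 and 10.53 in max3. It rose by 1.73 ± 0.40 (adjusted p = 0.0406). Its level was far higher after decapitation, with a mean of 12.24, and its difference of 0.58 between max3 and max1 did not pass (adjusted p = 1). Without single arrays the call was lost in 5 of 6 fits, with an adjusted p of up to 0.133. ATG8E, an autophagy gene 18 genes away, exceeded max2 by 0.81 (adjusted p = 0.0244), with a change of 0.28 from the intact plants (adjusted p = 0.394). The other measured genes ran from -0.63 to 0.90, and none of the 88 was among the 6 probe sets set apart. With 50 genes on either side 1 of 37 passed (2.7%), and with 200 it was 3 of 175 (1.71%). The further ones, ETFQO (AT2G43400), a mitochondrial electron carrier of amino acid breakdown, and AT2G43800, fell by 0.58 ± 0.12 (adjusted p = 0.0212) and 0.59 ± 0.12 (adjusted p = 0.0163). Each lost the call in 3 of the 6 fits that left out an array, with an adjusted p of up to 0.0799 and 0.068.

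**Figure D4:**
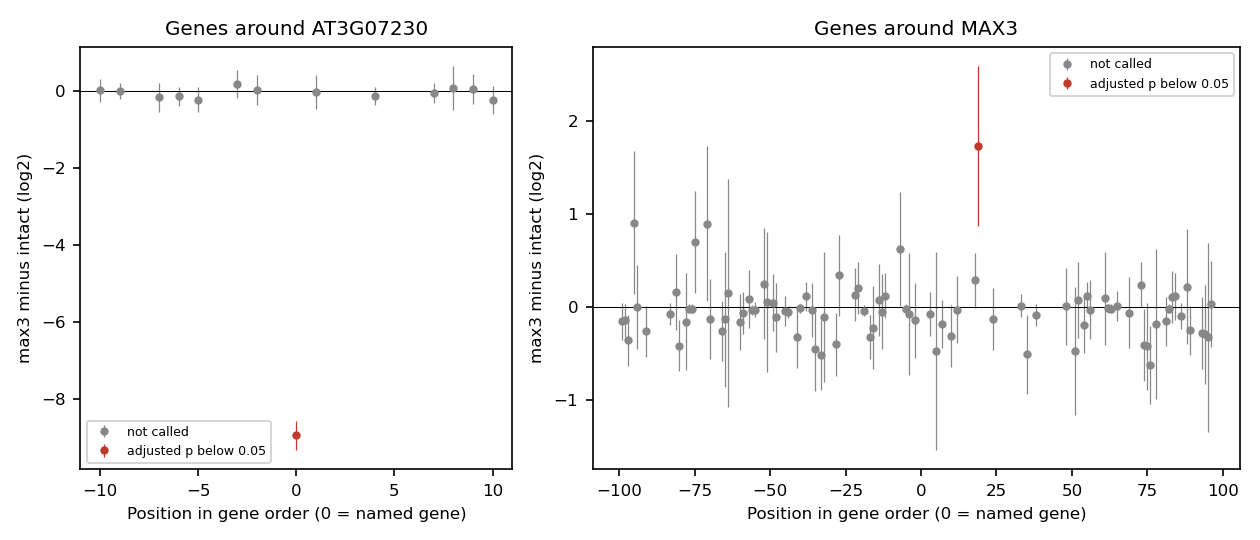
The log2 difference of max3 from the intact plants, with its 95% interval, is drawn for measured genes in chromosome order around AT3G07230 (left, 10 genes on each side) and around MAX3 (right, 100 on each side). AT3G07230 is the only red point on the left and AT2G45180, at 1.73, the only one on the right.

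The direct tests against the other mutants compared mutant means, with the error pooled over all 7 groups, the intact arrays included. Max3 differed from max1 in 82 probe sets (0.361%), 52 higher (0.229%) and 30 lower (0.132%), and from max2 in 41 (0.18%), 27 higher (0.119%) and 14 lower (0.0615%). With the replicate block the counts were 144 (0.633%) and 112 (0.492%). Of the 82, 16 also differed between max3 and the intact plants, and of the 41, 19 did. The other 66 and 22 were not called against the intact plants, so these counts include departures of the other mutant. AT2G25450, picked after its values were seen, averaged 3.75 in max1, 12.47 in the intact plants and 13.20 in max3. The 82 named 49 genes, 20 on chromosome 1 and 19 on chromosome 2. Of all 13355 named genes, 3411 and 2169 lay there. Fitted on the compared arrays alone, 17 and 1 remained past the threshold. The count against max2 was 163 without max2 replicate 3, 17 without its replicate 2, 27 without its replicate 1 and 24 without max3 replicate 1.

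Several genes set max3 apart from the perception mutant max2 but not, by test, from max1, and were picked for description after their values were seen. AT5G63180 was one: max1 averaged 6.43 and max2 3.15, and max3 exceeded max2 by 3.4 (adjusted p = 0.00292). AT3G16370 rose by 2.53 over the intact plants (adjusted p = 0.00552) and exceeded max2 by 3.11 (adjusted p = 0.0037). AT1G29660 rose by 2.58 (adjusted p = 0.0324) and exceeded max2 by 3.54 (adjusted p = 0.0166). Its call against the intact plants was lost in 5 of the 6 fits that left out an array (adjusted p up to 0.124). Its neighbour AT1G29670 exceeded max2 by 3.73 (adjusted p = 0.0037), with a change of 1.85 from the intact plants that did not pass (adjusted p = 0.0739). ATPMEPCRD exceeded max2, whose values were 3.83, 4.11 and 4.52, by 2.55 (adjusted p = 0.0141), and max1 by 1.36 (adjusted p = 0.361).

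AT4G25790, again picked after its values were seen, differed between max3 and both other mutants. Max3 read 2.1, 3.73 and 2.21, against 5.19, 5.70 and 5.93 in max1 and 6.05, 5.48 and 6.69 in max2. Max3 was lower than max1 by 2.92 (adjusted p = 0.00135) and than max2 by 3.39 (adjusted p = 0.000801). Its difference of 0.49 from the intact plants did not pass (adjusted p = 0.594). AT1G26380 was higher in max3 than in the intact plants by 2.39 (adjusted p = 0.0061) and than in max1 by 2.11 (adjusted p = 0.0293). Its difference of 1.82 from max2 did not pass (adjusted p = 0.105).

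The genes of the plastid's own genome, which encode parts of the photosynthetic complexes and of the plastid's gene expression machinery, leaned one way. Of 69 measured, 6 (8.7%) rose and none fell, against 0.794% and 0.914% of all named genes. At an unadjusted p below 0.05 the counts were 44 higher and 0 lower. In all, 67 of the 69 estimates were positive, with a median of 0.61 against -0.03 over all named genes. Within the numbered pairs of replicates the plastid median was 0.84, 0.58 and 0.35, while that of all probe sets was -0.02, -0.02 and -0.04. So each pair leaned the same way, by unequal amounts.

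The NDH complex, which passes electrons around photosystem I, held 3 of the 6. ndhJ read 6.95, 6.86 and 6.65 in the intact plants and 8.56, 8.46 and 7.58 in max3, a rise of 1.38 ± 0.28 (adjusted p = 0.0198). ndhE read 6.43, 6.58 and 6.28 against 8.28, 7.93 and 7.12, a rise of 1.34 ± 0.32 (adjusted p = 0.0449). ndhC rose by 1.09 ± 0.26 (adjusted p = 0.0463). In ndhJ and ndhE replicate 3 of max3 was the lowest of its group. ndhJ lost its call in 4 of the 6 fits that left out an array, ndhE and ndhC in 5, with adjusted p-values of up to 0.0967, 0.19 and 0.168.

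The ATP synthase held another pair of the called genes. atpA read 12.68, 12.98 and 12.99 against 14.06, 13.62 and 13.51, a rise of 0.84 ± 0.21 (adjusted p = 0.0497). atpB read 14.49, 14.33 and 14.44 against 15.04, 14.91 and 14.72, a rise of 0.47 ± 0.11 (adjusted p = 0.0425). ccsA, needed to attach haem to cytochromes, rose by 0.61 ± 0.14 (adjusted p = 0.0324). Without single arrays, atpA lost the call in all 6 fits and atpB and ccsA in 5, with adjusted p-values of up to 0.209, 0.177 and 0.135. By complex, the median difference was 0.80 over 10 NDH subunits, 0.76 over 6 ATP synthase subunits, 0.68 over 5 of photosystem I and 0.49 over 15 of photosystem II. It was 0.48 over 6 of the cytochrome b6f complex, 0.47 over 15 ribosomal proteins and 0.66 over 4 subunits of the plastid RNA polymerase.

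The number of plastid genes called moved with the processing: 11 with the replicate block, 4 after subtraction of array medians and 3 after a second quantile normalization. Nuclear photosynthesis genes taken as leaf markers did not pass the test. RCA, which activates Rubisco, read 12.66, 12.53 and 11.99 against 13.86, 12.77 and 12.38 (0.61 ± 0.42, adjusted p = 0.557). LHCB4.2, a light-harvesting protein, read 11.97, 12.09 and 12.86 against 12.54, 12.23 and 12.18 (0.01 ± 0.26, adjusted p = 0.985). These were the 2 measured of 9 leaf markers, and the part of leaf tissue in the plastid shift was not tested. Direct tests called none of the 69 against max1 (median 0.11) or max2 (median 0.42), with 1 and 18 at an unadjusted p below 0.05. Against the same intact arrays the plastid median was 0.48 in max1 and 0.21 in max2. The 11 measured genes of the mitochondrial genome had a median of 0.06 and none was called, with 0 at an unadjusted p below 0.05.

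**Figure D5:**
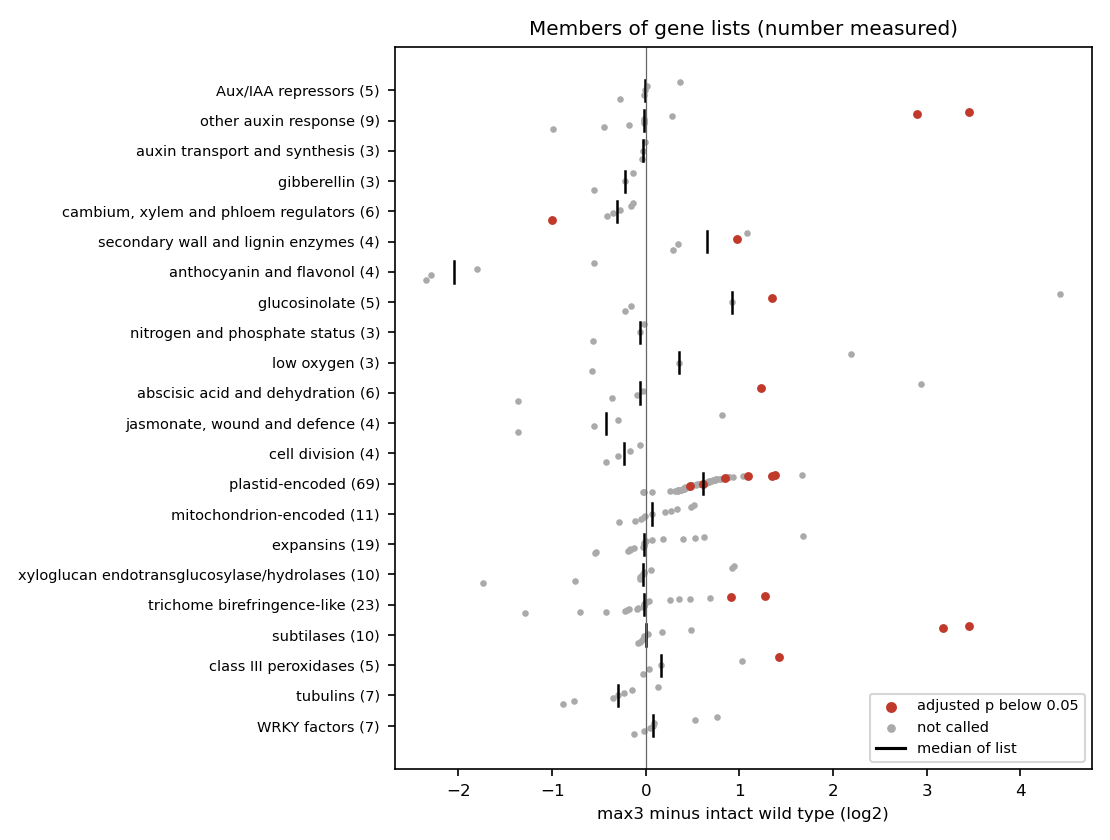
Each row is a gene list with the number of members measured, each point the log2 difference of 1 member between max3 and the intact plants (x axis), and the black bar the median. Red points passed the test. The plastid-encoded genes lie almost all to the right of 0, with 6 called, and the 4 anthocyanin genes lie to the left with none called.

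In the strigolactone pathway 2 of 7 synthesis genes and 2 of 19 response genes on the lists were measured, and none passed limma's test, with 1 and 0 at an unadjusted p below 0.05. AT4G36470 read 6.41, 6.90 and 6.79 in the intact plants and 7.20, 7.73 and 7.51 in max3. The groups did not overlap, and the difference of 0.78 ± 0.25 had an adjusted p of 0.134. Its mean was 7.80 in max1 and 7.94 in max2, and 5.68 after decapitation. AT1G64680 differed by 0.42 ± 0.35 (adjusted p = 0.603), AT5G06570 by -0.20 ± 0.27 (adjusted p = 0.713) and CXE20 (AT5G62180), a carboxylesterase that binds strigolactone, by 0.03 ± 0.05 (adjusted p = 0.782). CXE20 stayed below 3.5 on every array, so a change could not be seen there.

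Among the auxin genes measured, none was called beyond GH3.3 and WAG2. Only 5 of 25 Aux/IAA repressors, the short-lived proteins that auxin removes, were measured, and 2 of them lay below 3.5 on every array. None of the 5 passed, 0 had an unadjusted p below 0.05, and their median was -0.01. IAA30 differed by -0.28 ± 0.23 (adjusted p = 0.599) and IAA18 by 0.37 ± 0.38 (adjusted p = 0.645). Of 20 other auxin genes on the list 9 were measured. Among these the 2 already named rose and none fell, against 0.794% and 0.914% of all named genes, and the median was -0.02. At an unadjusted p below 0.05 there were 2 higher and 1 lower, GH3.9, at -0.99 ± 0.43 (adjusted p = 0.309). All 3 measured genes of auxin synthesis and transport, YUC2 and YUC4 among them, lay below 3.5 throughout.

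ARR15 was 1 of only 2 measured cytokinin genes (0.914% of all named genes fell), and 3 gibberellin genes held no call (1 lower at an unadjusted p below 0.05). GID1A, a gibberellin receptor, read 9.67, 9.79 and 9.96 against 8.96, 9.25 and 9.55 (-0.55 ± 0.17, adjusted p = 0.129). GID1C differed by -0.22 ± 0.30 (adjusted p = 0.707). Among 6 cambium, xylem and phloem regulators CLE41 fell and none rose, against 0.914% and 0.794% of all named genes. All 6 estimates were negative, with a median of -0.31, but only that of CLE41 had an unadjusted p below 0.05. The list held 34 genes, and 1 of the 6 measured lay below 3.5 on every array.

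The measured secondary wall and lignin genes had 4 positive estimates of 4 and a median of 0.66, and 1 rose, against 0.794% of all named genes. This was GUT2 (AT1G27440), which builds the xylan backbone. It read 8.60, 8.04 and 8.46 against 9.39, 9.38 and 9.24, a rise of 0.97 ± 0.22 (adjusted p = 0.035). IRX15, which also acts on xylan, read 6.65, 5.98 and 6.84 against 7.55, 7.82 and 7.34, and its difference of 1.08 ± 0.45 did not pass (adjusted p = 0.292). Of 23 trichome birefringence-like genes, a family of wall acetyltransferases, TBL34 and TBL38 rose and none fell, against 0.794% and 0.914% of all named genes. The median was -0.02, and 5 of the 23 lay below 3.5 on every array. TBL38 (AT1G29050) read 9.63, 9.68 and 9.73 against 10.74, 10.63 and 10.40, a rise of 0.91 ± 0.19 (adjusted p = 0.0264). Of 5 class III peroxidases 1 rose, against 0.794% of all named genes: AT2G41480, from 6.44, 6.43 and 6.49 to 7.62, 8.05 and 7.94 (1.42 ± 0.32, adjusted p = 0.0344). Fits without single arrays lost GUT2 and TBL38 in 5 of 6 and AT2G41480 in all 6, with adjusted p-values of up to 0.133, 0.113 and 0.1.

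Other wall families and the tubulins gave no call. At an unadjusted p below 0.05 there were 1 higher and 1 lower expansin, 2 lower XTH genes and 2 lower tubulins. None of 19 expansins, which loosen walls, passed: EXPB3 differed by -0.54 ± 0.18 (adjusted p = 0.154) and EXPA9 by 1.68 ± 0.50 (adjusted p = 0.104). None of 10 xyloglucan-modifying XTH genes passed, with XTH16 at -1.74 ± 0.49 (adjusted p = 0.0843) and XTH33 at -0.76 ± 0.22 (adjusted p = 0.0952, and 0.0423 with the replicate block). In these families 9 expansins and 3 XTH genes lay below 3.5 on every array, so a change could not be seen there. Of 7 tubulins none passed, with a median of -0.30. TUB1 differed by -0.76 ± 0.26 (adjusted p = 0.175) and TUB5 by -0.88 ± 0.39 (adjusted p = 0.324, and 0.00443 with the replicate block). TUB5 read 10.64, 11.05 and 11.49 against 9.59, 10.39 and 10.55, lower in max3 in each numbered pair.

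Anthocyanin genes had the lowest median of the lists, -2.05 over 4 measured, with none past limma's test, 3 lower at an unadjusted p below 0.05 and 3 lower with the replicate block. AT4G14090 read 9.88, 8.98 and 8.87 in the intact plants and 7.37, 7.35 and 6.14 in max3. Its difference of -2.29 ± 0.61 had an adjusted p of 0.0665, and of 0.00182 with the block. UF3GT (AT5G54060), a glycosyltransferase that decorates anthocyanins, read 8.87, 7.96 and 6.41 against 5.95, 6.47 and 3.80 (-2.34 ± 0.99, adjusted p = 0.294, and 0.0431 with the block). UGT78D2, a flavonoid glycosyltransferase and the third under the block, differed by -0.55 ± 0.48 (adjusted p = 0.614, and 0.0443 with the block). Replicate 3 was the lowest in both groups for these genes.

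Glucosinolates are sulfur-rich defence compounds, and 5 of the 28 genes on their list were measured. AT2G31790 rose, from 9.22, 9.41 and 8.87 to 10.41, 10.75 and 10.37 (1.34 ± 0.29, adjusted p = 0.0275), and none fell. That was 1 of 5, against 0.794% of all named genes. It lost the call in all 6 fits that left out an array, with an adjusted p of up to 0.0947. BCAT4 (AT3G19710), which starts the lengthening of methionine for these compounds, is named because of its size, after its values were seen. It read 7.68, 8.79 and 7.75 against 11.93, 13.08 and 12.49, a difference of 4.43 ± 1.25 with an adjusted p of 0.0863, and of 0.00799 with the replicate block. The gap between the groups exceeded the spread within either, while the error came from all 7 groups.

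Stress and nutrient lists gave 1 call in all, COR47, 1 of 6 genes of abscisic acid and dehydration, against 0.794% higher over all named genes. At an unadjusted p below 0.05 that list held 2 higher and 0 lower genes, and its changes ran from -1.36 to 2.94. The lists described next held 1 gene at that level, CML38. Low oxygen gave none of 3, with CML38, a calmodulin-like protein, at 2.20 ± 0.64 (adjusted p = 0.0965) and AT3G10040 at -0.58 ± 0.43 (adjusted p = 0.579). Jasmonate, wound and defence gave none of 4, with ORA47 at -1.36 ± 0.80 (adjusted p = 0.49) and STZ at 0.81 ± 0.53 (adjusted p = 0.537). WRKY factors gave none of 7, with WRKY22 at 0.76 ± 0.42 (adjusted p = 0.463) and WRKY47 at 0.52 ± 0.35 (adjusted p = 0.54).

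Nitrogen and phosphate status gave none of 3. GAT1_2.1 scattered widely, with 6.51, 8.66 and 8.03 against 5.54, 7.48 and 8.49 (-0.56 ± 1.13, adjusted p = 0.811), and NRT2.5 was near background. GI, the only measured clock gene, differed by 0.22 ± 0.67 (adjusted p = 0.883). Cell division gave none of 4, with PRL, a replication-licensing protein, at -0.43 ± 0.26 (adjusted p = 0.498) and the histone gene HTB2 at -0.30 ± 0.34 (adjusted p = 0.667). Markers of neighbouring tissue were near background in both groups where measured: CLV3 and UFO for the shoot apex, between 1.80 and 2.02, and EXPA7 for root hairs, between 1.81 and 1.86. None of 8 markers of stem vasculature was named by a probe set of its own here, so they could not be followed. Whether probe sets without a named gene measure them was not tested.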

How the data were processed

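The authors deposited log2 values for 22810 probe sets of 21 arrays, and the submitters' processing notes name RMA, GCRMA and R 3.2.2 without saying which made these values. The values were used as deposited, and 64 control probe sets were left out. A model of 7 group means was fitted with limma 3.58.1 in R 4.3.3 over 22746 probe sets, with Benjamini-Hochberg adjustment. Probe sets were named from the platform annotation: 13513 name 1 gene, 503 several and 8730 none here, and 13436 matched the TAIR10.1 annotation. A gene with several probe sets was read from the brightest. Named were the 12 raised and 12 lowered with a symbol, non-overlapping groups and the largest change, then 4 and 4 with a locus code, the probe sets set apart, called genes near MAX3, and up to 4 called (otherwise 2) per list. Genes and lists were chosen with earlier results of these data known. List rules for MYB factors and cytosolic ribosomal proteins matched 0 and 1 genes and were not used. Per the labels, treatments of each replicate were done together, so numbers pair samples. Residuals of max3 and intact arrays with the same number correlated at 0.467, -0.0568 and 0.361 (medians over all groups 0.361 with the same and -0.123 with different numbers). With 3 arrays a group, their number limits the precision. The fit was tested on simulated data. Alternatives covered the block, scaling, filters, variance model, array weights and left-out arrays.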

Additional observations from a re-analysis of the deposited data

How the results depend on the processing

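None of the called genes named above changed direction where an alternative gave an estimate. The replicate block, the variance model and the fits on the compared arrays alone leave a difference unchanged. They could therefore not show a change of direction. The counts of probe sets past the threshold were less stable. Counts are given in the order changed, higher and lower for max3 against the intact plants, then changed against max1, against max2 and set apart from all 3. The reported counts were 459, 227, 232, 82, 41 and 6. The replicate block, whose pairing the labels give, gave 971, 487, 484, 144, 112 and 14. Array quality weights gave 1526, 747, 779, 280, 74 and 15. Fits on the compared arrays alone, with fewer samples, gave 123, 57, 66, 17, 1 and 1. Probe sets naming 1 gene, a smaller number tested, gave 182, 81, 101, 49 and 23. A change of at least 1, a stricter rule, gave 233, 147, 86, 53 and 27. Leaving out probe sets with a mean below 3.5 gave 341 higher. The causes of these shifts were not tested. Leaving out single arrays gave 217 to 306 changed, 106 to 163 higher, 106 to 156 lower, 61 to 98 against max1, 17 to 163 against max2 and 3 to 11 set apart. Of the 24 genes with a symbol and the largest changes, 9 kept their call under every other processing that tested them and 16 in all 6 fits without one array. All 24 kept it with the replicate block. TINY2 and GH9B18, counted among the 9, and IQD18 were not tested where probe sets with a mean below 3.5 were left out.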
